A study of Mus musculus with 32 samples.

Results

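The Period and cryptochrome repressor genes were taken from both count tables of this series by their symbols: Per1, Per2, Per3, Cry1, Cry2 and Ciart. All 6 were listed in each table, of 27843 genes listed for AML12 cells and 55414 for HL-1 cells, and all 6 passed the filter on low counts in both lines. AML12 is a mouse hepatocyte line and HL-1 a mouse cardiomyocyte line, and the series describes them as the partners of a co-culture system. AML12 cells were sampled either as controls or treated with what the labels call DEX, at 17 h and at 25 h. HL-1 cells were sampled at 16 h and at 28 h, either with AML12-derived control medium without DEX synchronization or with conditioned medium (CM) of AML12 cells that did have DEX synchronization. Each of the 8 groups had 4 RNA-seq libraries, 32 in all. Within each line no genotype differed between the groups, and both HL-1 arms received medium from AML12 cells. Neither the dose of DEX nor what the times are counted from is stated. The sample descriptions write the times as ZT and call the HL-1 CM libraries DEX. Nothing says that the 4 libraries in each group are separate cultures, so p-values measure only the spread between these libraries.

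The mammalian circadian clock is a transcriptional feedback loop. A heterodimer of CLOCK and BMAL1 (gene Arntl) binds E-box sequences and switches on the Per and Cry genes, whose proteins accumulate, enter the nucleus together and inhibit that heterodimer until they are degraded. CIART, also called CHRONO, is a further repressor that binds BMAL1. Liver and heart both carry this loop in their own cells, and glucocorticoids, which are used to synchronize cultured cells, act directly on Per1 through the glucocorticoid receptor.

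Positions are from GENCODE M21 on GRCm38. Per1 (ENSMUSG00000020893) lies on chromosome 11 at 69095217 to 69109960 on the plus strand, and the other 5 genes lie on minus strands. Per2 (ENSMUSG00000055866) is on chromosome 1 at 91415982 to 91459324, and Per3 (ENSMUSG00000028957) is on chromosome 4 at 151003652 to 151044665. Cry1 (ENSMUSG00000020038) is on chromosome 10 at 85131700 to 85185064, Cry2 (ENSMUSG00000068742) on chromosome 2 at 92403646 to 92434043, and Ciart (ENSMUSG00000038550) on chromosome 3 at 95878503 to 95882251. The genes lie on 6 different chromosomes, so no 2 of them are neighbours. Per3 overlaps the gene Camta1 on the same strand, and Cry2 overlaps D930015M05Rik on the other strand (at most 18 reads in any library). Camta1 had 138 to 185 reads per AML12 library and 58 to 140 per HL-1 library.

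The stretches of promoter below show which clock-related sequence letters the members carry within 250 bases before their transcription start, since the members moved together in some groups and apart in others. They come from RefSeq promoter sequences on GRCm38.p6, which held 5 of the 6 members (Per2 had no entry), and run 5′ to 3′ along the gene's strand. Capitals mark 4 kinds of motif. The E-box, bound by CLOCK and BMAL1, is CACGTG. Its variant, the E-prime box, is CACGTT, and all of those found lie on the other strand. The D-box, bound by DBP and TEF, is TTANGTAA. The core of the element bound by ROR and REV-ERB factors is AGGTCA, also found on the other strand. The stretches lie at chr11:69098768-69098832 for Per1, chr4:151044801-151044885 for Per3, chr10:85185094-85185148 for Cry1, chr2:92434215-92434250 for Cry2 and chr3:95882252-95882359 for Ciart.
Per1: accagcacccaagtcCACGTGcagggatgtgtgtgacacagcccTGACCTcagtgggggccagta
Per3: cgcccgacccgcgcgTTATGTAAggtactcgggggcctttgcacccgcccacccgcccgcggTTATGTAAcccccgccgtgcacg
Cry1: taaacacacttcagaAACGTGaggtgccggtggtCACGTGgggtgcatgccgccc
Cry2: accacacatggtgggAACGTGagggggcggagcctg
Ciart: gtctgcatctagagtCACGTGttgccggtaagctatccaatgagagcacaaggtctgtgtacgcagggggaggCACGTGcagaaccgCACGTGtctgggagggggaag
Ciart held 3 E-boxes, Per1 and Cry1 held 1 each, Cry1 and Cry2 held 1 E-prime box each, and Per3 held 2 D-boxes and no E-box in this window. Both RefSeq starts of Per1 lie inside the GENCODE gene, whose outermost start was not searched, and the second had none of these letters before it. The bases after the RefSeq start of Cry2 are in no GENCODE transcript of the gene. Of 32851 RefSeq windows of 250 bases, searched on both strands, 6.02% held an E-box, 3.85% an E-prime box, 2.06% a D-box and 14.0% the ROR core. At least 3 E-boxes were found in 20 windows (0.0609%) and at least 2 D-boxes in 60 windows (0.183%). The cyclic AMP response element TGACGTCA (1.55% of windows) and the palindromic glucocorticoid response element (0.00913%) matched in none of the members' windows. A match here is a match of letters, and no binding was measured.

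Total counts were 15032450 to 17472840 per AML12 library. In HL-1 they were 17513896 to 19304043 per library with CM and 15734197 to 18104661 in control medium, so depth differed between the arms there. Levels are given as CPM, counts divided by the TMM-scaled library size. Among AML12 markers the hepatocyte factor Hnf4a (205 CPM) and Apob (154 CPM) were present while Alb was at 1.43 CPM and Cps1 and Fgb near 0, and the bile duct keratin Krt19 was at 1699 CPM. In HL-1 cells Des (524 CPM), Tnnt2 (34.5 CPM) and Gata4 (18.1 CPM) were present, the defining atrial and sarcomere markers Myl7, Myh6, Actn2 and Nppa were at or near 0, and fibroblast Col3a1 was at 1454 CPM. Tnnt2 (55.0 CPM) and Gata4 (22.8 CPM) were also present in AML12 cells, so they do not set HL-1 apart. Of the bile duct markers, Krt19 (119 CPM) and Sox9 (96.5 CPM) were present in HL-1 cells, and Krt7 and Epcam were at or near 0. The summed level of the 8 hepatocyte markers was 279 to 293 CPM in DEX libraries at 17 h and 382 to 419 CPM in their controls. Most of this sum came from Hnf4a and Apob. Of 6 hepatocyte markers tested at 17 h, edgeR called 4 lower and 2 higher with DEX, where 38.4% of all genes tested were called. At that time 3 bile duct markers summed to 2358 to 2577 CPM with DEX against 1759 to 1958 CPM, with 2 called higher and 0 lower. The summed level of the 4 fibroblast markers was 1123 to 1267 CPM in CM libraries at 16 h against 1334 to 1502 CPM in controls, and 1839 to 2099 against 2188 to 2365 CPM at 28 h. Most of this sum came from Col3a1. At each time 2 of the 4 were called lower and 0 higher, against 2.21% and 2.07% of all genes tested. The 9 cardiomyocyte markers, mostly Des, summed to 454 to 534 CPM with CM against 379 to 465 CPM at 16 h. At 28 h they summed to 697 to 794 against 643 to 698 CPM. At each time 1 of 5 tested was called higher and 0 lower. In these bulk samples fewer cells of a type and less RNA per cell cannot be told apart, and the part of these marker and depth differences in the results on the clock repressors was not tested. No 2 libraries of a group agreed within sampling noise (chi-square per degree of freedom 2.06 to 18.1). In 5 groups 1 library was farther from each of the other 3 than any of those were from each other: replicate 2 of DEX at 17 h, replicate 4 of DEX at 25 h, replicate 4 of each AML12 control group and replicate 3 of the HL-1 control at 16 h. Calls of the members that change without them are given with both values.

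DEX at 17 h was followed by a split within the family in AML12 cells. Per1 rose 3.13-fold while Per2, Per3, Cry1 and Cry2 fell by 2.02-fold to 9.34-fold, and Ciart did not pass the test. So 5 of 6 members passed, where 38.4% of all 14114 genes tested did. Fold changes are log2 ± SE, and a gene is called where the adjusted p of edgeR's quasi-likelihood test over all genes tested is at most 0.05.

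Among the Period genes, Per1, the member that is also a glucocorticoid target, was at 29.6, 32.7, 26.4 and 30.1 CPM in the controls at 17 h and at 93.0, 97.4, 90.0 and 90.6 CPM with DEX. Every DEX library lay far above every control, with a log2 fold change of 1.65 ± 0.07 (edgeR adjusted p = 1.08e-17, n = 4 and 4).

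Per2, a core inhibitor of CLOCK and BMAL1, went the other way, from 17.6, 18.0, 18.2 and 19.7 CPM in controls to 4.47, 6.77, 4.63 and 5.67 CPM with DEX. All 4 DEX libraries were low, and replicate 2, which stood apart from its group over all genes, was the highest of them. Per2 fell, with a log2 fold change of -1.77 ± 0.11 (edgeR adjusted p = 9.87e-14), and -1.90 without that library.

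Per3, the paralog least needed for the core rhythm, had the largest change of the 6 members in size, from 31.0, 32.2, 31.9 and 32.2 CPM to 3.81, 3.99, 2.80 and 3.02 CPM. The groups were far apart. The SD was 1.89% of the mean in controls and 17.0% with DEX, where libraries held 46 to 63 reads. Its log2 fold change was -3.22 ± 0.13 (edgeR adjusted p = 3.48e-15), a 9.34-fold fall.

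The cryptochromes, the subunits that hold CLOCK and BMAL1 inactive, fell by similar sizes. Cry1 was at 12.0, 10.4, 10.9 and 11.4 CPM in controls and at 5.92, 5.13, 5.91 and 5.12 CPM with DEX. Cry2 was at 18.3, 18.1, 20.5 and 18.0 CPM in controls and at 9.00, 10.2, 7.62 and 10.1 CPM with DEX. For both genes all DEX libraries were below all controls. The log2 fold changes were -1.01 ± 0.12 for Cry1 and -1.02 ± 0.09 for Cry2 (edgeR adjusted p = 5.16e-08 and 1.19e-10).

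Ciart was low in AML12 cells at 17 h, with 1.22, 2.27, 1.48 and 1.86 CPM in controls and 1.03, 1.58, 1.04 and 1.85 CPM with DEX, from 17 to 35 reads per library. The groups overlapped, and the log2 fold change of -0.31 ± 0.23 was not called (edgeR adjusted p = 0.313, 95% interval -0.79 to 0.16), with a range of -0.50 to -0.16 when 1 library was left out. Ciart overlaps the antisense gene C920021L13Rik, which had 23 to 35 reads in these libraries. Whether the counting used strand is not stated, so reads of the pair cannot be told apart.

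**Figure D1:**
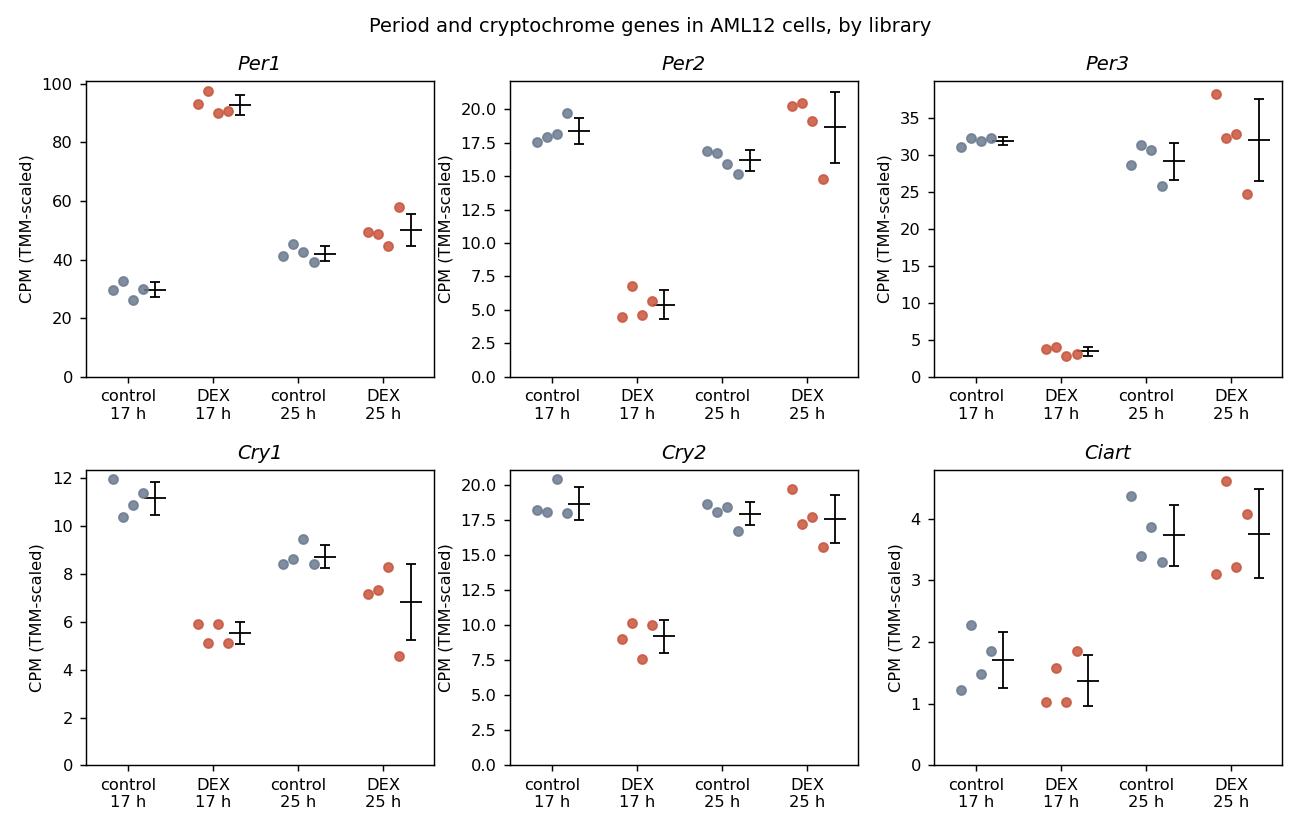
CPM (TMM-scaled) of the 6 genes in AML12 cells, 1 point per library and 4 libraries per group, with the mean and SD beside them in black; grey is control and red is DEX. At 17 h the DEX libraries of Per1 lie at 90.0 to 97.4 CPM, above all controls, and those of Per2, Per3, Cry1 and Cry2 lie below all controls, while at 25 h the groups lie close together.

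By 25 h little of this was left. Only Per1 was called among the 6 members, 1.19-fold higher with DEX, where 12% of all genes tested were called. Per1 was at 41.2, 45.3, 42.5 and 39.2 CPM in controls and at 49.4, 48.8, 44.7 and 57.9 CPM with DEX. The lowest DEX library lay just under the highest control. Its log2 fold change was 0.26 ± 0.07 (edgeR adjusted p = 0.00913). This call rested on single libraries: it was 0.17 with adjusted p = 0.101 without replicate 4 of DEX, and 0.21 with adjusted p = 0.0601 without replicate 4 of the control.

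Per2 at 25 h was at 16.9, 16.7, 15.9 and 15.2 CPM in controls and at 20.2, 20.5, 19.1 and 14.8 CPM with DEX. Here 3 DEX libraries were above all controls and replicate 4 was below them all. Its log2 fold change was 0.21 ± 0.09 (edgeR adjusted p = 0.175), and 0.29 with adjusted p = 0.0339 without replicate 4. Per3 showed the same layout, at 28.5, 31.3, 30.6 and 25.8 CPM in controls and 38.2, 32.2, 32.8 and 24.6 CPM with DEX (0.14 ± 0.09, edgeR adjusted p = 0.415), and ran from 0.027 to 0.23 with 1 library left out.

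Cry1 at 25 h was at 8.42, 8.61, 9.46 and 8.44 CPM in controls and at 7.15, 7.32, 8.31 and 4.57 CPM with DEX. All DEX libraries lay below all controls, with replicate 4 again the lowest. The log2 fold change of -0.35 ± 0.12 lay just outside the threshold (edgeR adjusted p = 0.0529) and was called in 5 of 8 other settings of the analysis, but it was -0.21 with adjusted p = 0.237 without replicate 4 of DEX. Cry2, at 18.6, 18.1, 18.4 and 16.8 CPM in controls and 19.8, 17.2, 17.7 and 15.6 CPM with DEX, overlapped fully (-0.03 ± 0.08, 95% interval -0.20 to 0.14). Ciart, at 4.38, 3.39, 3.87 and 3.29 CPM in controls and 3.11, 4.61, 3.23 and 4.09 CPM with DEX, also overlapped (0.02 ± 0.17, 95% interval -0.32 to 0.35). Replicate 4 of DEX at 25 h thus had the highest Per1 and the lowest Per2, Per3, Cry1 and Cry2 of its group, which are the directions of the 17 h effect.

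The change of the DEX effect between the times was tested directly, as the effect at 25 h minus that at 17 h. It was called for 5 of 6 members, where 16.3% of all genes tested were called. The difference was -1.39 ± 0.09 for Per1, 1.98 ± 0.15 for Per2, 3.36 ± 0.16 for Per3, 0.66 ± 0.17 for Cry1 and 0.99 ± 0.12 for Cry2 on the log2 scale (largest edgeR adjusted p = 0.00644). For Ciart it was 0.33 ± 0.29 (edgeR adjusted p = 0.503). These 5 calls held when any 1 of the 16 libraries was left out.

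The time contrasts use the same libraries as the DEX comparisons and are not independent of them. In AML12 controls, 3 of 6 members differed between 25 h and 17 h, where 43.5% of all genes tested did. Per1 was higher at 25 h (0.50 ± 0.07), Ciart was higher (1.12 ± 0.19, a 2.18-fold rise) and Cry1 was lower (-0.35 ± 0.11, edgeR adjusted p = 0.0116). The antisense neighbour of Ciart was also higher in controls at 25 h (C920021L13Rik, 0.44 ± 0.17, edgeR adjusted p = 0.0422). Per2 (-0.18 ± 0.10), Per3 (-0.13 ± 0.09) and Cry2 (-0.06 ± 0.08) were not called.

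In DEX cells all 6 members differed between the times, against 56% of all genes tested. Per3 rose 9.37-fold from 17 h to 25 h (3.23 ± 0.13), Per2 rose 3.47-fold (1.79 ± 0.11), Ciart 2.74-fold (1.45 ± 0.20) and Cry2 1.91-fold (0.93 ± 0.09). Per1 fell by 0.89 ± 0.06 on the log2 scale. The overlapping opposite-strand genes of Ciart and Cry2 also rose in DEX cells, C920021L13Rik by 0.72 ± 0.17 and D930015M05Rik by 1.23 ± 0.33 (edgeR adjusted p = 0.000553 and 0.00219), the second from at most 6 to at most 17 reads per library. Cry1 rose least, by 0.31 ± 0.13 (edgeR adjusted p = 0.0418), and this call was lost when replicate 2 or 4 of DEX at 17 h or replicate 1, 2 or 3 of DEX at 25 h was left out, with values of 0.20 to 0.28 and adjusted p up to 0.211.

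Placed in order of level, Per1 in AML12 was highest with DEX at 17 h, then with DEX at 25 h and in controls at 25 h, whose libraries overlapped, and lowest in controls at 17 h. Per2 and Per3 were lowest with DEX at 17 h, clear of the next group, and for both genes DEX at 25 h overlapped controls at 17 h at the top. Cry2 had the same bottom group and overlap among its 3 upper groups. Cry1 ran from controls at 17 h through controls at 25 h to DEX at 25 h without overlap, and DEX at 25 h overlapped DEX at 17 h. Ciart followed the time of sampling: both 25 h groups, overlapping each other, lay above both 17 h groups.

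In HL-1 cells that received conditioned medium, the effect on Per2, Per3 and Cry1 changed direction between the times. At 16 h, 5 of 6 members were higher with CM than with control medium, by 1.27-fold to 1.82-fold, and at 28 h 4 of 6 were lower, by 1.26-fold to 1.88-fold. Few genes responded to CM at all: 2.21% of 14450 genes tested were called at 16 h and 2.07% at 28 h. By p-value, Per3 ranked 4 and Per2 ranked 8 of all genes tested at 16 h, and at 28 h Per2 ranked 6, Per3 ranked 20 and Cry1 ranked 24.

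Per2 in HL-1 at 16 h was at 24.7, 31.4, 29.0 and 30.5 CPM in control medium and at 45.1, 47.9, 50.8 and 50.2 CPM with CM. Every CM library was well above every control. The log2 fold change was 0.75 ± 0.07 (edgeR adjusted p = 3.13e-09). At 28 h Per2 was at 18.8, 21.3, 22.5 and 20.2 CPM in control medium and at 10.4, 11.5, 10.7 and 11.4 CPM with CM. Now every CM library was below every control, and the log2 fold change was -0.91 ± 0.08 (edgeR adjusted p = 2.86e-09).

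Per3 did the same, from 21.3, 23.0, 21.2 and 23.3 CPM in control medium to 40.0, 37.3, 43.1 and 41.4 CPM with CM at 16 h. The log2 fold change there was 0.87 ± 0.07 (edgeR adjusted p = 2.33e-10), with no overlap. At 28 h it was at 23.3, 22.8, 25.4 and 25.2 CPM in control medium and 13.3, 15.9, 17.3 and 16.2 CPM with CM. All CM libraries were low, and the log2 fold change was -0.62 ± 0.07 (edgeR adjusted p = 1.04e-06).

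Per1 responded only mildly in HL-1 cells. At 16 h it was at 19.9, 25.1, 24.3 and 24.9 CPM in control medium and at 27.8, 34.1, 29.9 and 33.1 CPM with CM, without overlap (0.41 ± 0.09, edgeR adjusted p = 0.0116). The call was lost without replicate 2 of CM (0.36, adjusted p = 0.0515) or replicate 4 of CM (0.37, adjusted p = 0.0585). At 28 h it was at 31.7, 36.2, 37.7 and 30.7 CPM in control medium and 29.0, 29.7, 34.7 and 36.4 CPM with CM, and the groups overlapped (-0.07 ± 0.09, 95% interval -0.25 to 0.11).

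Cry1, the cryptochrome with the stronger repressor activity, was at 25.4, 27.2, 25.0 and 25.4 CPM in control medium at 16 h and at 33.2, 33.4, 31.2 and 32.7 CPM with CM. The CM libraries were all higher (0.34 ± 0.07, edgeR adjusted p = 0.00296). At 28 h it was at 23.3, 22.6, 21.3 and 18.4 CPM in control medium and 14.6, 15.6, 13.1 and 12.8 CPM with CM. The CM libraries were then all lower (-0.61 ± 0.08, edgeR adjusted p = 3.14e-06).

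Cry2 moved in the same directions by less. At 16 h it was at 13.0, 13.3, 13.1 and 11.0 CPM in control medium and 12.9, 15.8, 15.1 and 16.2 CPM with CM, and with 1 CM library among the controls it was not called (0.25 ± 0.09, edgeR adjusted p = 0.214). At 28 h it was at 15.2, 13.9, 16.3 and 14.2 CPM in control medium and 10.3, 12.8, 12.4 and 11.9 CPM with CM, with no overlap (-0.34 ± 0.09, edgeR adjusted p = 0.0469). That call sat at the threshold: it was lost when any 1 library other than replicate 2 of CM was left out (adjusted p up to 0.181) and held in 4 of 8 other settings.

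Ciart, whose promoter stretch holds 3 E-boxes, was at 7.16, 9.56, 7.86 and 7.35 CPM in control medium at 16 h and at 10.6, 9.41, 11.7 and 12.1 CPM with CM. Replicate 2 of CM lay just under the highest control, and the log2 fold change was 0.46 ± 0.12 (edgeR adjusted p = 0.0238). The call was lost without replicate 1, 3 or 4 of the control or replicate 3 or 4 of CM (0.40 to 0.44, adjusted p up to 0.121). At 28 h Ciart was at 10.3, 7.57, 10.6 and 10.1 CPM in control medium and 8.20, 9.00, 7.67 and 9.59 CPM with CM, with overlap (-0.17 ± 0.12, edgeR adjusted p = 0.595). Its antisense neighbour C920021L13Rik had 3 to 33 reads per HL-1 library, against 118 to 220 for Ciart.

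**Figure D2:**
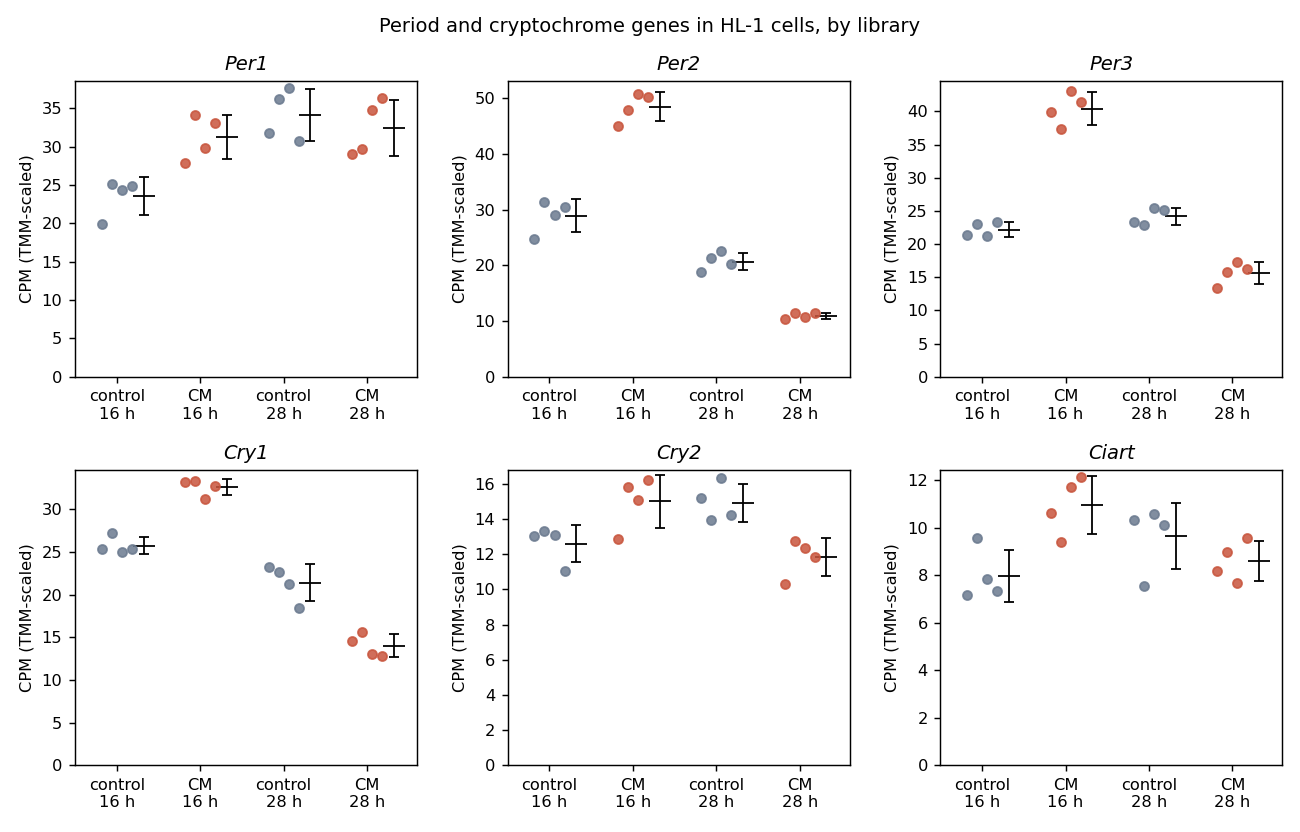
CPM (TMM-scaled) of the 6 genes in HL-1 cells, 1 point per library and 4 libraries per group, with the mean and SD in black; grey is control medium and red is CM. For Per2, Per3 and Cry1 the CM libraries lie above all controls at 16 h and below all controls at 28 h, as in Per2 with 45.1 to 50.8 CPM and then 10.4 to 11.5 CPM.

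The reversal was tested as the CM effect at 28 h minus that at 16 h. Of all genes tested 44 were called (0.304%), and 4 of the 6 members were among them. The difference was -1.66 ± 0.11 for Per2 (rank 2 of all genes by p), -1.49 ± 0.10 for Per3 (rank 4) and -0.95 ± 0.10 for Cry1 (rank 6), with edgeR adjusted p of 6.58e-13, 3.26e-12 and 4.37e-07. Cry2 differed by -0.58 ± 0.13 (edgeR adjusted p = 0.0313). Its call was lost in 9 of the 16 fits that leave 1 library out: replicate 2, 3 or 4 of either group at 16 h, replicate 1 or 3 of the control at 28 h, or replicate 1 of CM at 28 h, with adjusted p up to 0.135. Per1 (-0.48 ± 0.12, adjusted p = 0.142) and Ciart (-0.62 ± 0.16, adjusted p = 0.117) did not pass by edgeR. Per1 was called without a low-count filter, by DESeq2, with the replicate block and without replicate 4 of CM at 28 h (-0.54, adjusted p = 0.045). Ciart was called without a low-count filter and without replicate 2 of the control at 28 h (-0.72).

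The effects in the lines are given side by side. At the earlier time Per2, Per3 and Cry1 were lower with DEX in AML12 cells and higher with CM in HL-1 cells, and Per1 was higher in both. At the later time Per2, Per3 and Cry1 were lower with CM in HL-1 cells and were not called in AML12 cells, while Per1 was called in AML12 cells and not in HL-1 cells. The uncalled log2 fold changes in AML12 at 25 h were 0.21 for Per2, 0.14 for Per3 and -0.35 for Cry1 (edgeR adjusted p = 0.175, 0.415 and 0.0529). The lines were counted and normalized in separate tables and sampled at different times, so no test was made between them.

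**Figure D3:**
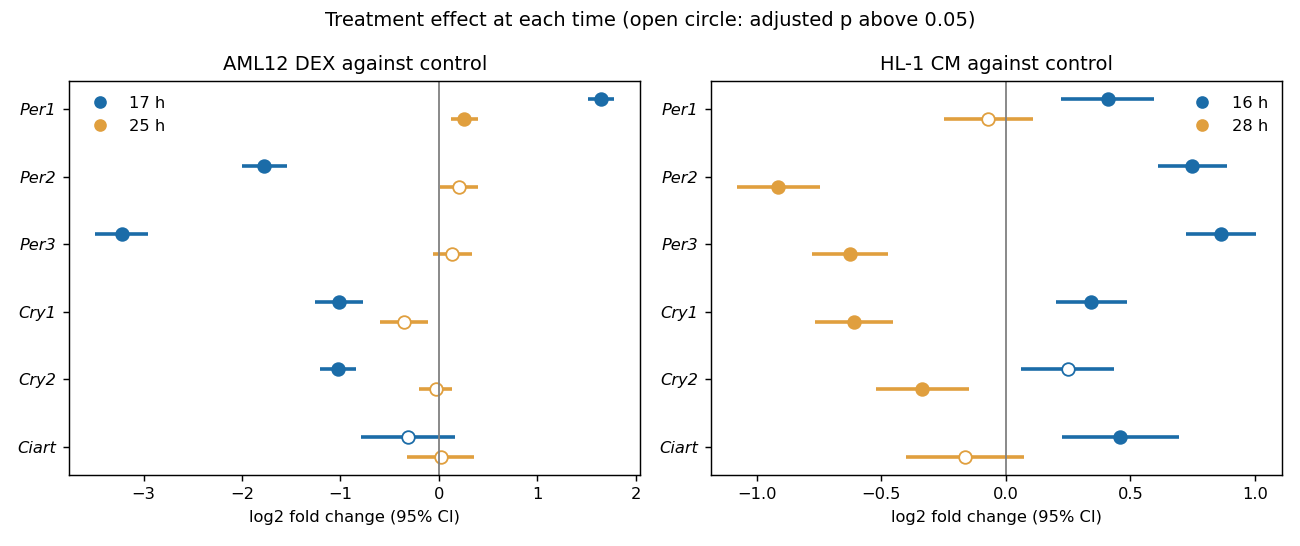
Log2 fold change of each gene for DEX against control in AML12 (left) and CM against control medium in HL-1 (right), with 95% intervals, blue for the earlier and orange for the later time; open circles did not pass an adjusted p of 0.05. In AML12 the largest values, from -3.22 for Per3 to 1.65 for Per1, are at 17 h, and in HL-1 Per2, Per3 and Cry1 lie right of 0 at 16 h and left of 0 at 28 h (the scales of the panels differ).

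HL-1 cells in control medium differed between 28 h and 16 h in 5 of 6 members, where 62.5% of all genes tested differed. In these controls the fibroblast markers summed to 2188 to 2365 CPM at 28 h against 1334 to 1502 CPM at 16 h. The bile duct markers summed to 295 to 320 against 104 to 127 CPM. The cardiomyocyte markers summed to 643 to 698 against 379 to 465 CPM, most of it from Des. Of 5 cardiomyocyte markers tested, 2 were called higher at 28 h, 2 lower and 1 was not called (median log2 fold change -0.11). The part of these marker differences in the members' changes was not tested. Per1 was higher at 28 h (0.54 ± 0.09), Per2 was lower (-0.48 ± 0.07) and Cry1 was lower (-0.27 ± 0.07). Cry2 (0.24 ± 0.09, edgeR adjusted p = 0.0226) and Ciart (0.28 ± 0.12, edgeR adjusted p = 0.042) were higher. The Cry2 call was lost without replicate 4 of the control at 16 h or replicate 3 of that at 28 h (lowest value 0.18), and the Ciart call was lost without replicate 1, 3 or 4 of either control group (0.22 to 0.26). Per3 was not called (0.12 ± 0.07), while Camta1, which overlaps it, was higher (0.61 ± 0.15, edgeR adjusted p = 0.000563).

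With CM, 5 of 6 members differed between the times, against 65.2% of all genes tested, and all 5 were lower at 28 h. Per2 fell 4.41-fold (-2.14 ± 0.08), Per3 2.58-fold (-1.37 ± 0.07) and Cry1 2.33-fold (-1.22 ± 0.07). Cry2 (-0.34 ± 0.09) and Ciart (-0.35 ± 0.11) fell less. Per1 was level (0.06 ± 0.09, 95% interval -0.12 to 0.23). Camta1, which overlaps Per3, was higher at 28 h with CM (0.67 ± 0.14, edgeR adjusted p = 0.000116).

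In order of level, Per2 and Cry1 in HL-1 ran from CM at 16 h through control medium at 16 h and at 28 h to CM at 28 h, with no overlap between neighbours. Per3 had the same top and bottom groups, and its 2 control groups overlapped. Per1 was lowest in control medium at 16 h, and its other 3 groups overlapped. Every neighbouring pair overlapped for Ciart, and for Cry2 the only clear step was from control medium at 28 h to control medium at 16 h.

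The 3 Period genes can be compared with each other per kb of annotated exon, which is 5.631 kb for Per1, 5.856 kb for Per2 and 9.608 kb for Per3. These lengths join the exons of all annotated transcripts, and the length of the transcripts expressed here was not measured. In AML12 controls at 17 h, Per1 was at 5.27 ± 0.461 CPM per kb (SD, n = 4), Per2 at 3.14 ± 0.163 and Per3 at 3.31 ± 0.0625. With DEX at 17 h Per1 was at 16.5 ± 0.598, Per2 at 0.920 ± 0.182 and Per3 at 0.354 ± 0.0604 CPM per kb. Per1 thus made up 92.8% ± 0.901 of the summed Period level with DEX at 17 h, and 44.9% ± 2.26 in its controls. The sum of the 3 genes was itself higher with DEX, at 17.7 ± 0.791 against 11.7 ± 0.522 CPM per kb.

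In HL-1 cells the sum was 18.0 ± 0.864 CPM per kb with CM and 11.4 ± 1.02 in control medium at 16 h, and 9.27 ± 0.817 against 12.1 ± 0.873 at 28 h. Per2 was the largest part at 16 h (45.9% ± 0.785 with CM and 43.1% ± 0.665 in control medium). Per1 was the largest part at 28 h (62.1% ± 2.00 with CM and 49.9% ± 1.88 in control medium). Per3 stayed between 16.7% and 24.7% in every HL-1 library.

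**Figure D4:**
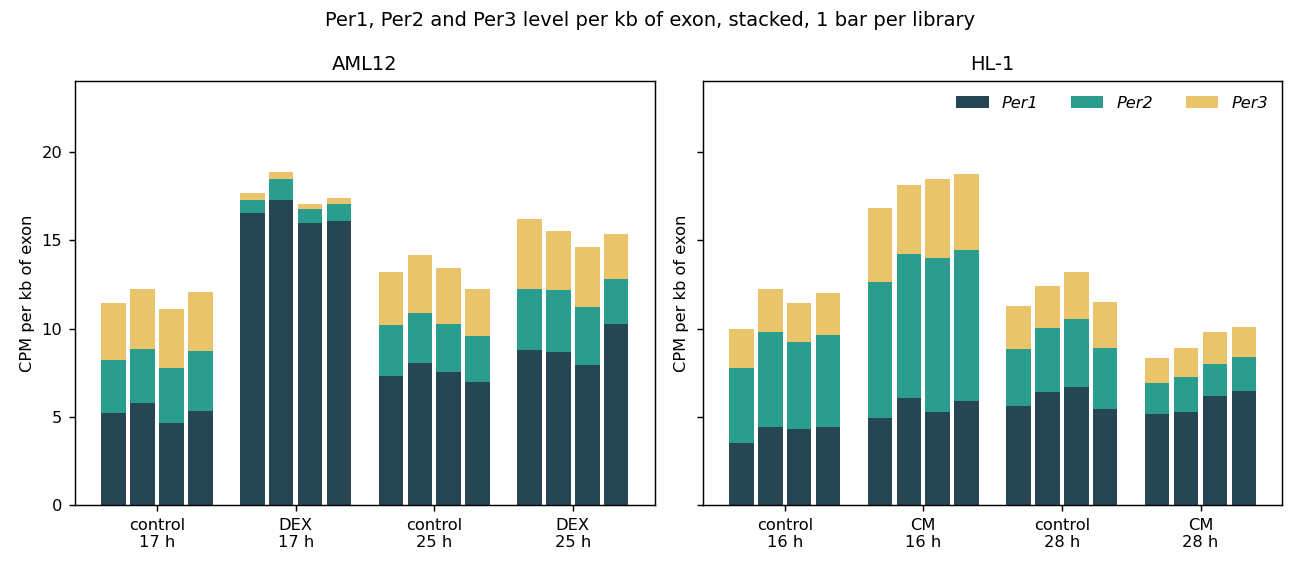
Level of Per1, Per2 and Per3 in CPM per kb of exon, stacked, with 1 bar per library and 4 libraries per group, AML12 on the left and HL-1 on the right. With DEX at 17 h Per1 fills 91.7% to 93.7% of each bar, and in HL-1 the bars are tallest with CM at 16 h (16.8 to 18.8 CPM per kb) and shortest with CM at 28 h (8.31 to 10.1 CPM per kb).

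Annotated exon is 3.34 kb for Cry1 and 6.32 kb for Cry2, and their shares per kb depend on these lengths. Before division by length, Cry2 was the higher in AML12 controls at 17 h (18.7 CPM, against 11.2 CPM for Cry1). Of the 2 cryptochromes, Cry1 made up 53.0% ± 2.37 of their summed level per kb in AML12 controls at 17 h and 53.2% ± 5.20 with DEX. At 25 h it made up 47.9% ± 1.46 in controls and 42.0% ± 4.95 with DEX. It made up more in HL-1 cells, at 79.4% ± 1.33 in control medium and 80.5% ± 1.70 with CM at 16 h, and at 73.0% ± 2.22 and 69.1% ± 2.84 at 28 h. The summed Cry level in AML12 at 17 h was 3.11 ± 0.0953 CPM per kb with DEX and 6.30 ± 0.248 in controls. In HL-1 it was 12.1 ± 0.350 with CM against 9.70 ± 0.388 at 16 h, and 6.07 ± 0.439 against 8.77 ± 0.692 at 28 h.

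The balance between members within a library does not depend on the scaling of libraries, so 3 count ratios were compared in the 4 treatment comparisons, 12 tests in all. The log2 ratio of Per1 to Per2 counts was 4.12 ± 0.245 (SD, n = 4) with DEX at 17 h and 0.69 ± 0.147 in controls. The libraries did not overlap, and exact permutation p was 0.0286, two-sided, the smallest that 4 against 4 can give (0.0686 adjusted over the 12 tests). At 25 h the same ratio was 1.43 ± 0.356 against 1.37 ± 0.0670, with overlap (exact permutation p = 0.971).

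In HL-1 the log2 ratio of Per1 to Per2 was -0.64 ± 0.121 with CM and -0.30 ± 0.0293 in control medium at 16 h, and 1.56 ± 0.158 against 0.72 ± 0.0759 at 28 h. It was therefore lower with CM at the earlier time and higher at the later time, without overlap at either (exact permutation p = 0.0286 each, 0.0686 adjusted). The log2 ratio of Per2 to Per3 was higher with DEX at 17 h, 0.65 ± 0.292 against -0.79 ± 0.0599, and lower with CM at 28 h, -0.51 ± 0.139 against -0.23 ± 0.105, again without overlap and with the same exact permutation p of 0.0286. None of the 12 passed the adjusted threshold of 0.05. The log2 ratio of Cry1 to Cry2 differed by 0.01 at 17 h (exact permutation p = 0.971) and by -0.35 at 25 h in AML12, and by 0.09 at 16 h and -0.27 at 28 h in HL-1, and its libraries overlapped in all 4 comparisons (smallest exact permutation p = 0.0571, for DEX at 25 h).

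The members were also compared by the Pearson correlation of their log2 CPM over the 16 libraries of a line, given as a description since libraries of a group share their condition. In AML12 Per2, Per3 and Cry2 ran together (r = 0.976 to 0.984), and Per1 had a negative correlation with each of the others (-0.867 with Per2, -0.878 with Per3, -0.900 with Cry1, -0.889 with Cry2 and -0.271 with Ciart). In HL-1 Per2 and Cry1 were closest (r = 0.968), followed by Per2 and Per3 (0.926) and Per3 and Cry1 (0.867). There Per1 was at -0.215 with Per2, 0.0649 with Per3, -0.297 with Cry1, 0.375 with Cry2 and 0.405 with Ciart.

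**Figure D5:**
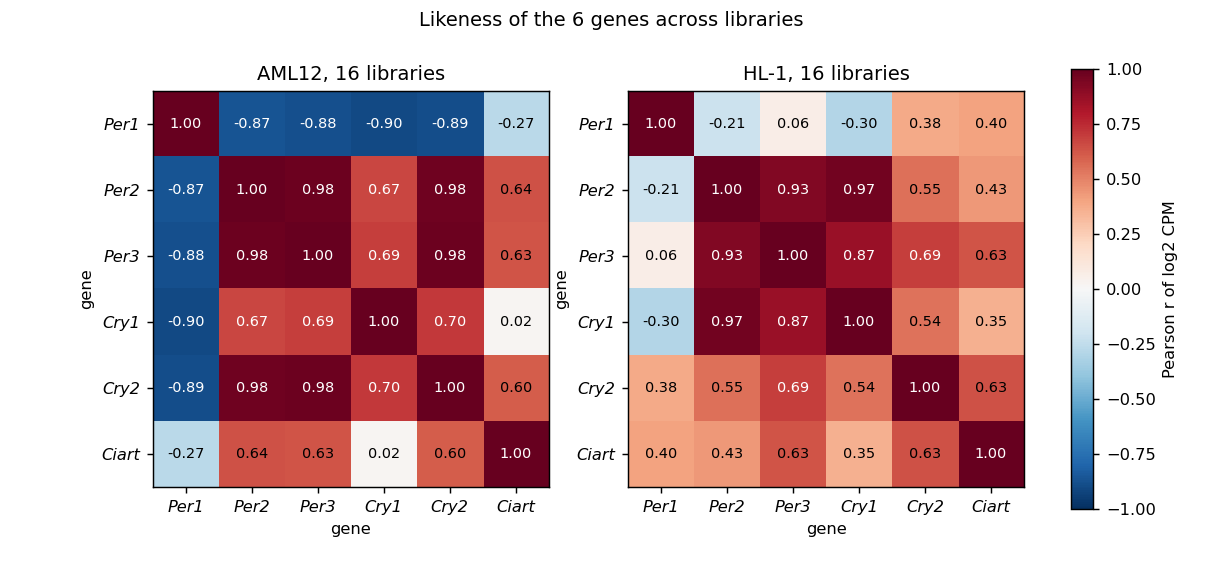
Pearson correlation of log2 CPM between the 6 genes over the 16 libraries of AML12 (left) and HL-1 (right), from blue at -1 to red at 1, with the value in each cell. In AML12 Per1 is blue against every other gene, and in HL-1 the block of Per2, Per3 and Cry1 is red while Per1 is pale against these 3.

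Among all genes tested with a named symbol, those most like Per1 in AML12 over the 16 libraries were the glucocorticoid-induced Tsc22d3 (r = 0.992), Ampd3 (0.989) and Adam12 (0.988). Most like Per2 were Per3 (0.984), Tef (0.980) and Rnf122 (0.979), and most like Per3 were Neurl3 (0.989), Per2 (0.984) and Spon2 (0.983). Cry2 was nearest to Per3 (0.977), Per2 (0.976) and Trim21 (0.971). Cry1 was nearest to Stk10 (0.953), Abca8b (0.947) and Ext1 (0.941), and Ciart to Dopey2 (0.956), Clca1 (0.954) and Zfp688 (0.952).

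In HL-1 Per2 was nearest to Tef (0.982), Coq10b (0.970) and Kif13a (0.968). Cry1 was nearest to Per2 (0.968), Kif13a (0.959) and Coq10b (0.958), so that 2 of its 3 nearest genes were also those of Per2. Per3 was nearest to Per2 (0.926), Fam76a (0.922) and Tef (0.913). Per1 was nearest to Angptl2 (0.909), Brd1 (0.907) and Plbd2 (0.902). Cry2 was nearest to Dmap1 (0.750), Rel (0.709) and Adarb1 (0.701), and Ciart to Arhgap32 (0.784), Fbxo47 (0.764) and Ugt1a6b (0.750), lower values than for the other members.

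The other genes of the clock loop moved as follows. Of 14 tested in AML12, 6 were higher and 6 lower with DEX at 17 h, where 38.4% of all genes tested were called (median log2 fold change -0.18, against 0.00438 over all genes tested). The activators Arntl (0.97 ± 0.08) and Clock (0.31 ± 0.05) and Timeless (0.61 ± 0.06) were higher. The output factors Tef (-2.75 ± 0.06) and Dbp (-3.88 ± 0.18) and the REV-ERB repressor Nr1d2 (-1.63 ± 0.07) were lower. At 25 h 6 were higher and 3 lower, against 12% of all genes tested (median 0.12 against 0.00171), among them Tef (0.51 ± 0.05), Timeless (0.43 ± 0.06) and Dbp (0.66 ± 0.10) higher and Nfil3 (-0.35 ± 0.06) and Arntl (-0.42 ± 0.09) lower.

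In HL-1 at 16 h, 4 of 17 were higher with CM and 2 lower, against 2.21% of all genes tested (median 0.0672 against 0.00458 over all genes tested). Tef (0.65 ± 0.04), Nr1d2 (0.41 ± 0.05) and Bhlhe41 (0.33 ± 0.07), a repressor that competes for E-boxes, were higher, and Arntl (-1.14 ± 0.07) and Clock (-0.18 ± 0.04) were lower. At 28 h the order was turned for 3 of them: Tef (-0.45 ± 0.04) and Nr1d2 (-0.28 ± 0.05) were lower and Arntl (0.25 ± 0.05) was higher (1 higher and 2 lower of 17, against 2.07% of all genes tested, median -0.0983 against -0.0106). The effect at 28 h minus that at 16 h was called for 5 of the 17, against 0.304% of all genes tested. They are named here because they were the 5 called: Tef (-1.11 ± 0.06), Nr1d2 (-0.69 ± 0.07), Dbp (-1.25 ± 0.25), Bhlhe41 (-0.44 ± 0.10) and Arntl (1.39 ± 0.09).

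A list of genes linked to PER and CRY turnover and modification, among them kinases, ubiquitin ligases and deubiquitinases, was counted in the same way. Of 22 tested in AML12, 4 were higher and 5 lower with DEX at 17 h (median -0.0203), a share near the 38.4% of all genes tested. Usp2, a deubiquitinase of clock proteins, was higher (0.77 ± 0.15), as were Csnk2b (0.15 ± 0.05) and Usp14 (0.12 ± 0.04). The ligase subunit Btrc (-0.29 ± 0.04), the PER kinase Csnk1e (-0.18 ± 0.04) and Skp1a (-0.16 ± 0.05) were lower. At 25 h only Csnk1e was called of these 22 (-0.17 ± 0.04), against 12% of all genes tested. In HL-1 1 of 23 was called at 16 h (Csnk1e, 0.17 ± 0.04) and 0 of 23 at 28 h by edgeR, where 0 also had an unadjusted p under 0.05. The shares of all genes tested that were called were 2.21% and 2.07%.

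Glucocorticoid-responsive genes other than Per1 were counted too. Of 17 tested in AML12, 12 were higher and 3 lower with DEX at 17 h (median 1.18), against 38.4% of all genes tested. Those with the smallest p were Tsc22d3 (1.73 ± 0.05), Fkbp5 (1.77 ± 0.05) and Klf9 (1.23 ± 0.05). At 25 h 5 were higher and 3 lower (median 0.00900), against 12% of all genes tested, among them Fkbp5 (0.56 ± 0.05), Fam107a (1.07 ± 0.16) and Lcn2 (-0.62 ± 0.08). Between the times the effect fell for 11 of 17 and rose for 1, against 16.3% of all genes tested. In HL-1 4 of 14 were higher and 1 lower with CM at 16 h, and 2 higher and 2 lower at 28 h, against 2.21% and 2.07% of all genes tested.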

How the data were processed

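Bulk RNA-seq of 32 libraries (8 groups of 4) was analysed from 2 deposited tables of read counts per gene, 1 per cell line, each with 16 libraries. Per the submitters' processing notes, reads were checked with FastQC 0.11.8 and aligned with STAR to mm10 (GRCm38). Neither a counter, nor its use of strand, nor a gene annotation is named in those notes. The number of per-sample columns that matched no sample was 0.

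The 6 members and the gene lists were chosen with earlier results of these data known. Each table was filtered (filterByExpr by group) and fitted over its 16 libraries with edgeR 4.0.16 (R 4.3.3): TMM scaling, robust quasi-likelihood test, 1 mean per group, Benjamini-Hochberg adjustment over all genes tested, threshold 0.05. The procedure was tested on simulated data. CPM values are TMM-scaled, and log2 CPM for correlations used a prior count of 0.5. Count ratios used counts plus 0.5 and exact two-sided permutation tests. Levels per kb divide CPM by the union of GENCODE exons.

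Members are named in all 10 contrasts. Of the clock and turnover lists, up to 3 called genes per direction with the smallest p are named for each treatment comparison, of the glucocorticoid list up to 3 called genes for AML12, and for each member the 3 genes with the highest correlation (clone-type symbols left out). One gene that this rule names is not reported here. Alternatives were DESeq2 1.42.0 and limma-voom (limma 3.58.1), scaling by RLE or by totals alone, all genes unfiltered, a replicate block, thinning to the lowest total, fits of only the 8 libraries compared, each library left out, and for ratios an offset of 1.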

Additional observations from a re-analysis of the deposited data

Results flagged for a closer look

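Within groups of 4 libraries, 1 library lay far from the other 3 in 4 of 48 combinations of gene and group, and chance gives about 1 in 20 such groups. Cry2 was highest in replicate 3 of the AML12 controls at 17 h (20.5 CPM). In HL-1 control medium at 16 h, Per1 was lowest in replicate 1 (19.9 CPM) and Cry2 was lowest in replicate 4 (11.0 CPM). Ciart was lowest in replicate 2 of control medium at 28 h (7.57 CPM).

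The treatment effect differed between the times by edgeR's quasi-likelihood test for 9 of 12 combinations of member and line. Of all genes tested, 16.3% were called in AML12 and 0.304% in HL-1. In AML12 the effect at 25 h minus that at 17 h was -1.39 for Per1, 1.98 for Per2, 3.36 for Per3, 0.66 for Cry1 and 0.99 for Cry2 (log2). In HL-1 the effect at 28 h minus that at 16 h was -1.66 for Per2, -1.49 for Per3, -0.95 for Cry1 and -0.58 for Cry2.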

How the results depend on the processing

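Of 60 member results 43 were called, 35 of them under every alternative and with any 1 library left out, 8 lost the call at least once and 0 of the called values changed sign. These results pool 10 contrasts, in which 0.304% to 65.2% of all genes tested were called. No scaling moved the median of all genes by over 0.1 (log2). Where a call changed, the cause was not tested. For DEX at 25 h, Cry1 was called with RLE size factors (-0.36), no low-count filter (-0.35), DESeq2 (-0.36), limma-voom (-0.38) and the replicate block (-0.36), so 2 members were called in each; Ciart was -0.032 in thinned counts. In AML12 controls between times, Per2 was called with total counts only (-0.23), and with only the 8 libraries compared Per2 (-0.19) and Per3 (-0.13) were called, 5 members in all. In DEX cells between times, Cry1 lost its call by DESeq2 (0.31), limma-voom (0.28) and with only the 8 libraries (0.31). For CM at 28 h, Cry2 lost its call with total counts only (-0.32), limma-voom (-0.34), thinned counts (-0.32) and only the 8 libraries (-0.32). For the change of the CM effect, 81 genes were called without a low-count filter and 68 by DESeq2, against 44; Per1 was called without a filter (-0.49), by DESeq2 (-0.47) and with the replicate block (-0.48), and Ciart without a filter (-0.64). In HL-1 controls between times, Ciart lost its call without a filter (0.27), by limma-voom (0.28) and in thinned counts (0.26).

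With 1 library left out at a time, values for DEX at 25 h ran from 0.17 to 0.29 for Per1, 0.15 to 0.29 for Per2, -0.47 to -0.21 for Cry1, -0.11 to 0.011 for Cry2 and -0.11 to 0.087 for Ciart, with 0 to 2 members called. Cry1 in DEX cells between times ran from 0.20 to 0.46. For CM at 16 h, Per1 ran from 0.33 to 0.45 and Ciart from 0.40 to 0.55, with 3 to 5 members called. For CM at 28 h, Cry2 ran from -0.38 to -0.28, with 192 to 358 genes called. For the change of the CM effect, 32 to 71 genes were called, and Per1 ran from -0.54 to -0.39, Cry2 from -0.63 to -0.52 and Ciart from -0.72 to -0.56. In HL-1 controls between times, Cry2 ran from 0.18 to 0.27 and Ciart from 0.22 to 0.38, with 3 to 5 members called, and in CM cells Per1 ran from -0.0033 to 0.11. The difference in log2 ratio of Cry1 to Cry2 with DEX at 17 h ran from -0.11 to 0.10, and of Per1 to Per2 at 25 h from -0.12 to 0.13.

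Deviations of same-numbered libraries correlated at -0.0799 to 0.0992 in AML12 and -0.0898 to 0.103 in HL-1, with 0 and 1 of 24 pairs over 0.1. Libraries of different numbers correlated at -0.1145 to 0.0824 in AML12 and -0.1886 to 0.1658 in HL-1. So no deviation shared by number was seen, but this cannot show how the cultures were handled, which is not stated. The replicate block changed no member's call other than those of Cry1 and Per1 above.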
